A study of Mus musculus with 6 samples.

Results

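Glycolysis turns glucose into pyruvate, and activated T cells run it fast while exporting much of the pyruvate as lactate. The genes described here encode that route from the glucose transporters of the cell surface, through the glycolytic enzymes and their isoforms, to lactate export and to the entry of pyruvate into mitochondria. They were chosen by gene symbol as 37 members, and all 37 of them are rows of the 49492-row count table. In all, 36 passed the filter on low counts, and the muscle isoform Pgam2, with 4 counts over 6 libraries, did not.

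RNA came from naive CD8 T cells of the spleen, taken from OT-I mice, which carry a transgenic T cell receptor for an ovalbumin peptide, and stimulated for 24 hours. The stimulus, shared by every library, was 1 µg/ml anti-CD3 bound to the plate with 1 µg/ml anti-CD28 in the medium. Mice were of strain C57/BL6 and 6 to 8 weeks old. Replicates 1, 2 and 3 are labelled Wild Type-OT-I (WT) and replicates 4, 5 and 6 are labelled NIK-CD4Cre-OT-I (KO), where NIK, the product of Map3k14, is the kinase at the head of noncanonical NF-kB signalling. A Cre under Cd4 control is switched on in the thymus, before CD8 cells separate from CD4 cells. The labels name Cre for the KO mice alone, so Cre itself and the loss of NIK cannot be told apart. No unstimulated library was analysed here, so the values do not show how far stimulation changed a gene. Whether the 3 libraries of a genotype stem from 3 mice is not stated, and p-values therefore measure the spread between libraries, which may in part be technical. The question is whether loss of NIK alters the transcripts of the metabolic programme of activated CD8 T cells.

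Total counts ran from 41311346 to 47851445 per library. Levels are in CPM, a gene's counts relative to its library's total after TMM scaling, and 3 counts correspond to 0.0627 to 0.0722 CPM, for counting error only. Values of a gene are listed in replicate order, 1 to 3 for WT and 4 to 6 for KO. Counts of Xist were 82938 to 92901 in 3 libraries (KO replicate 6, WT replicates 1 and 3) and 22 to 38 in the remaining ones, so the libraries of a genotype did not all come from the same mouse. Xist was low in replicate 2 alone among WT and high in replicate 6 alone among KO, so its split differed between the genotypes. A fit with a term for Xist level is among the alternatives given below. The 7 CD8 T cell markers, among them Cd8a and Cd3e, summed to 2374 to 2479 CPM in WT and 2437 to 2542 CPM in KO, while Cd4 was at most 0.920 CPM. None of the 7 passed the edgeR test, but 6 had estimates above 0 and 1 below. KO lay above WT without overlap for 3 of them (Cd3d, Cd8b1 and Lck), where 6.68% of all tested genes did so. At an unadjusted p under 0.05 in edgeR 1 was higher in KO, where 3.82% of all genes were so. Map3k14 had 53.6, 65.5 and 65.3 CPM in WT replicates 1, 2 and 3 and 50.7, 64.5 and 54.7 CPM in KO replicates 4, 5 and 6, and its groups overlapped. Its log2 fold was -0.12 (SE 0.11, adjusted p = 0.81 by edgeR). Counts are summed over all exons of Map3k14, and a Cre-deleted allele may still be transcribed in part, so these counts do not check the genotype labels, which are taken as given, and each direction below is between libraries as labelled.

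As background, glucose enters T cells through GLUT1 and GLUT3, and hexokinase traps it as glucose 6-phosphate. Phosphofructokinase commits the sugar to glycolysis, and the lower enzymes then yield ATP and pyruvate. Lactate dehydrogenase A regenerates NAD+ by making lactate, which leaves through monocarboxylate transporters, whereas the pyruvate carrier and pyruvate dehydrogenase take pyruvate into mitochondria. MYC and HIF-1 are transcription factors known to raise many of these genes after T cell stimulation. A common core of HIF-1 binding sites is ACGTG, the only form searched for here. MYC with its partner MAX binds CACGTG, which contains that core.

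The promoters of 6 members are printed to show where this core lies in genes of glucose uptake, glycolysis and lactate formation and export. Each is the 250 bases before a RefSeq transcription start on GRCm38.p6, written 5′ to 3′ on the gene's strand, with every ACGTG and its reverse complement CACGT in capitals. Slc2a1 encodes GLUT1 (chr4:119108495-119108744, plus strand), Hk2 hexokinase 2 (chr6:82774455-82774704, minus strand) and Pgk1 phosphoglycerate kinase (chrX:106186850-106187099, plus strand). Ldha encodes lactate dehydrogenase A (chr7:46845554-46845803, plus strand, 1 of 2 listed starts), Slc16a3 the lactate exporter MCT4 (chr11:120948817-120949066, plus strand) and Slc16a1 the transporter MCT1 (chr3:104638414-104638663, plus strand).
Slc2a1: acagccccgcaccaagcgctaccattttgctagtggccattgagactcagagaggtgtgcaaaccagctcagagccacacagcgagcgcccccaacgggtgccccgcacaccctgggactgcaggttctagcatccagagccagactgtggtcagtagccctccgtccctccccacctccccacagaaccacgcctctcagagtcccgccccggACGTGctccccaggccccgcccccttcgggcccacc
Hk2: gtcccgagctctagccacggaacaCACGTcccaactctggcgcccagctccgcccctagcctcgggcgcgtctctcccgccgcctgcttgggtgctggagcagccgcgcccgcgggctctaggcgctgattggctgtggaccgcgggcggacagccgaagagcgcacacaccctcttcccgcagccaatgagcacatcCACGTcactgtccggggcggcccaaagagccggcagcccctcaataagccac
Pgk1: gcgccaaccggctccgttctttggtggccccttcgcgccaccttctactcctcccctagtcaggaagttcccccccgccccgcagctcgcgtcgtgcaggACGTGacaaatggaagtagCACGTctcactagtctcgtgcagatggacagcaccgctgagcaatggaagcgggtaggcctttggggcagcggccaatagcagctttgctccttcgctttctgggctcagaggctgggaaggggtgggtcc
Ldha: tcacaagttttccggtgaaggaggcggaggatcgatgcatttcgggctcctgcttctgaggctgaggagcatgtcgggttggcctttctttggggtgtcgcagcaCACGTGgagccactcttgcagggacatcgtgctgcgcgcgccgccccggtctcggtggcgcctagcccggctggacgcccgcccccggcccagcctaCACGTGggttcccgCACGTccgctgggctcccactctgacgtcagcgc
Slc16a3: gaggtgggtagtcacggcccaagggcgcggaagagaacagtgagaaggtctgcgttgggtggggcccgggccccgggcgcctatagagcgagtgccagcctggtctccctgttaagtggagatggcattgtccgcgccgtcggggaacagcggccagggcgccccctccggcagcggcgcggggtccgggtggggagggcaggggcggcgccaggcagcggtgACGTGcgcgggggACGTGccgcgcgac
Slc16a1: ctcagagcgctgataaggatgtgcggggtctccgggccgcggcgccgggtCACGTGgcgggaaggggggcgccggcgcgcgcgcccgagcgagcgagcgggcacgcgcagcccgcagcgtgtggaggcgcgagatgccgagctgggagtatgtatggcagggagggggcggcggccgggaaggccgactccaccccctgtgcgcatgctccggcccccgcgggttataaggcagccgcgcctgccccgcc
The Ldha window holds 3 separate matches, 2 of which are the full CACGTG, and the Slc16a1 window holds 1 CACGTG. The window of the other listed Ldha start holds 0. Hk2, Pgk1 and Slc16a3 hold 2 matches each without a full CACGTG, and Slc2a1 holds 1. Of 35 members with a promoter in the RefSeq table, 16 (45.7%) had the core, on either strand, in at least 1 window, against 25.2% of 9863 tested genes and 18.5% of 27018 genes in all. Counted by window, the shares were 38.5% of 52 member windows, 21.6% of 12561 windows of tested genes and 16.6% of 32841 windows. For CACGTG the shares of windows were 11.5%, 8.2% and 6.0%. The core contains CG, and median GC content was 61.0% in member windows, 59.6% in windows of tested genes and 52.4% in all windows, so base composition differed too. Eno1, Gapdh, Pdk1, Pfkp, Tpi1, Gpi1 and Pfkl were among the members with no match, which says only that the letters are not in these windows. Pdp1 and Slc2a3 were not matched.

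No member passed the test between genotypes. EdgeR's quasi-likelihood test with Benjamini-Hochberg adjustment called 0 of 36 members, where it called 0.00659% of all 15186 tested genes, and the smallest adjusted p among members was 0.70. At an unadjusted p under 0.05 there were also 0 members, against 7.26% of all genes, and DESeq2 likewise called 0 members, where it called 0.657% of genes. The estimates leaned to lower values in KO: 27 of 36 were negative with a median log2 fold of -0.086, while 47.6% of all tested genes were negative with a median of 0.0071. The groups did not overlap for 1 member, Pdha1, where 12.8% of all genes had groups that did not overlap. KO lay above WT in this way for 0 members and for 6.68% of all genes.

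**Figure D1:**
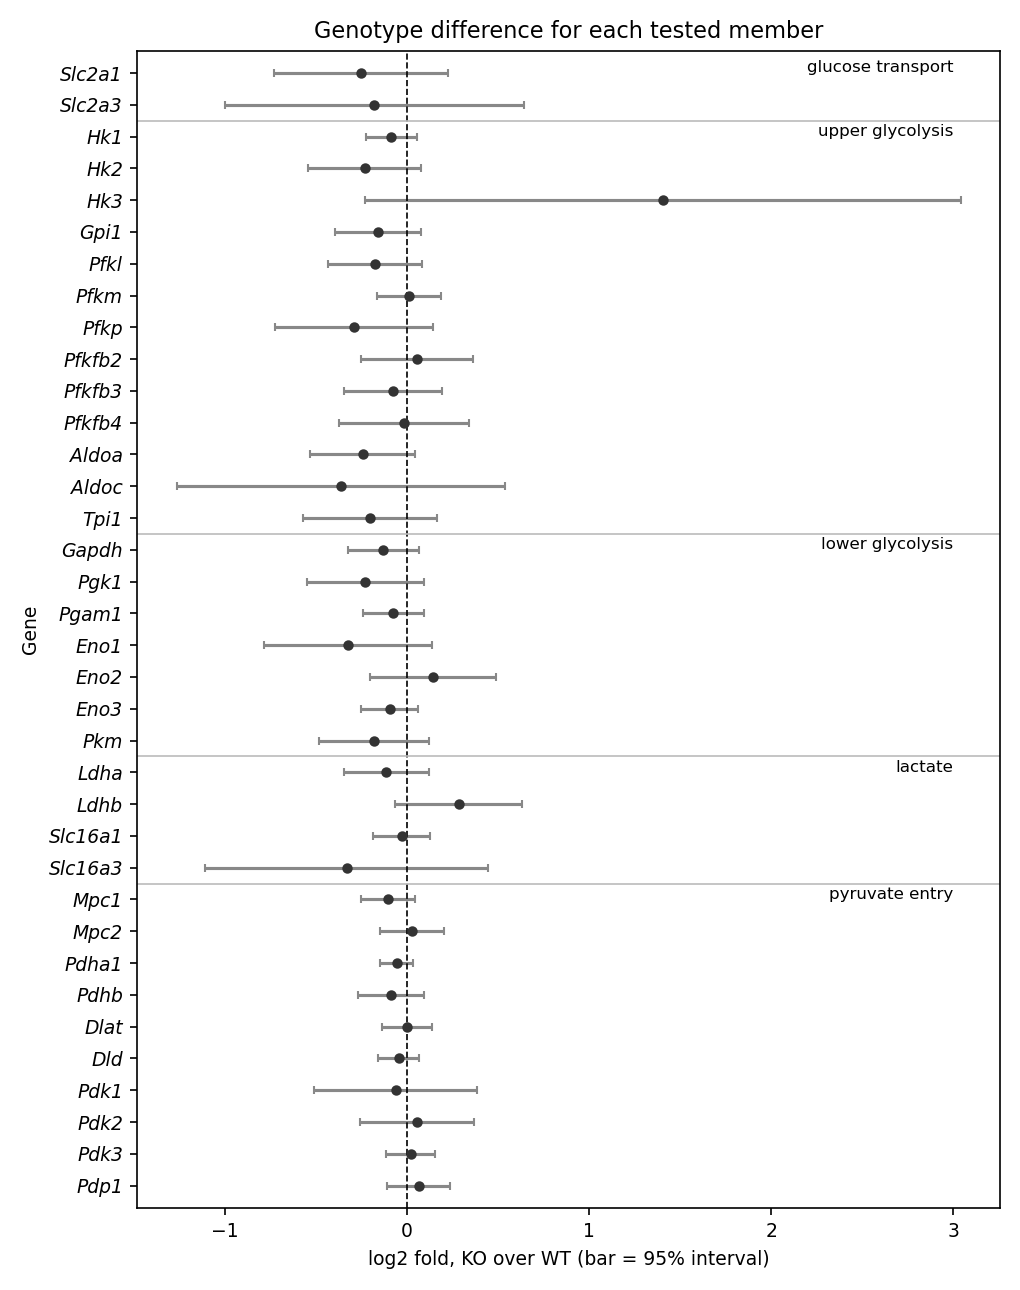
Log2 fold of KO over WT (x axis) for each of the 36 tested members (y axis), ordered by step of the route, with bars for the 95% interval from edgeR. Each interval includes 0, and those of Hk3, Slc2a3, Slc16a3 and Aldoc are the widest.

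Both glucose transporters varied more within a genotype than between genotypes. Slc2a1, the gene of GLUT1 (chromosome 4, 119108711 to 119137983, plus strand, GRCm38), had 142, 238 and 224 CPM in WT replicates 1, 2 and 3 and 147, 159 and 200.3 CPM in KO replicates 4, 5 and 6. WT replicate 1 was the lowest of the 6 libraries and WT replicate 2 the highest, so the KO libraries all lay between 2 WT libraries. The log2 fold was -0.25 (SE 0.20, adjusted p = 0.78 by edgeR), and the 95% interval of the fold, 0.602 to 1.17, leaves room for a moderate change in either direction. Slc2a3, the gene of the high-affinity transporter GLUT3, had 82.1, 194 and 152 CPM in the WT libraries and 93.0, 114 and 172 CPM in the KO libraries, with a log2 fold of -0.18 (SE 0.34, adjusted p = 0.91 by edgeR). It spanned 2.36-fold among WT libraries alone and was the lowest in WT replicate 1.

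Among hexokinases the level was carried by Hk2 and Hk1. Hk2, the inducible isoform (chromosome 6, 82725025 to 82774454, minus strand, GRCm38), had 309, 423 and 391 CPM in WT replicates 1, 2 and 3 and 311, 285 and 359 CPM in KO replicates 4, 5 and 6. WT replicates 2 and 3 lay above every KO library, WT replicate 1 lay among them, and the log2 fold was -0.23 (SE 0.13, adjusted p = 0.71 by edgeR), with an interval of the fold from 0.687 to 1.06. Hk1, the constitutive isoform, had 197, 229 and 214 CPM in the WT libraries and 201, 199 and 204 CPM in the KO libraries. Its KO libraries had a coefficient of variation of 1.31%, and the log2 fold was -0.086 (SE 0.060, adjusted p = 0.75 by edgeR). Per kilobase of exon, Hk2 made up 66.6% to 72.1% of the signal of the 3 hexokinases in the 6 libraries, and 52.3% to 58.4% when the longest transcript set the length.

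Hk3, an isoform of myeloid cells, had the largest estimate of all members, and was singled out after its values were seen. It was at 3.63, 4.09 and 1.01 CPM in WT replicates 1, 2 and 3 and 9.43, 2.11 and 11.6 CPM in KO replicates 4, 5 and 6, a log2 fold of 1.40 (SE 0.69, adjusted p = 0.70 by edgeR). KO replicates 4 and 6 were high and KO replicate 5 was within the WT range. The summed level of 6 macrophage and monocyte markers was high in the same libraries, with 7.80 and 7.61 CPM in KO replicates 4 and 6, 2.14 CPM in KO replicate 5 and 1.86 to 3.13 CPM in the WT libraries. Its largest parts there were Lyz2, with 4.72 and 2.65 CPM, and Csf1r, with 1.46 and 2.84 CPM. Cd14 and Itgam did not follow, and were highest in WT replicate 2, at 0.153 and 0.591 CPM. Of these 6 markers 4 were tested, 0 were called and 3 had positive estimates, and Fcgr1, at 0 in 3 libraries, was the one not seen in every library. Of 4 dendritic cell markers, Clec9a was also highest in KO replicates 4 and 6, with 1.61 and 1.44 CPM against at most 0.490 CPM elsewhere. Flt3 was not, Siglech was highest in WT replicate 3 at 0.259 CPM, and Xcr1 was at 0 in all libraries but 1. Their part in the Hk3 values was not tested. In bulk RNA, fewer cells of a type and less RNA per cell cannot be told apart, which holds for all values here.

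Downstream of hexokinase, the abundant enzymes of upper glycolysis had lower KO means but overlapping groups. Gpi1, glucose 6-phosphate isomerase, had 720.2, 939 and 866 CPM in WT replicates 1, 2 and 3 and 723, 739.7 and 804 CPM in KO replicates 4, 5 and 6, a log2 fold of -0.16 (SE 0.10, adjusted p = 0.74 by edgeR). Of the phosphofructokinases, Pfkp, the platelet-type isoform, had 442, 735 and 627 CPM in the WT libraries and 483, 434 and 558 CPM in the KO libraries, with a log2 fold of -0.29 (SE 0.18, adjusted p = 0.74 by edgeR). Pfkl, the liver-type isoform, had 233, 303 and 303 CPM in the WT libraries and 237, 239.7 and 267 CPM in the KO libraries, with a log2 fold of -0.17 (SE 0.11, adjusted p = 0.74 by edgeR). In these 3 genes WT replicates 2 and 3 exceeded every KO library and WT replicate 1 did not. The muscle-type Pfkm was low, 18.1 CPM ± 1.32 in WT against 18.2 CPM ± 0.398 in KO (SD, n = 3 each), and its log2 fold was 0.012 (adjusted p = 0.98 by edgeR).

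Aldoa, the aldolase of most tissues, had the lowest p of any member with a lower KO mean. It stood at 1155, 1632 and 1409 CPM in WT replicates 1, 2 and 3 and 1149, 1138 and 1259.8 CPM in KO replicates 4, 5 and 6, a log2 fold of -0.24 (SE 0.12, adjusted p = 0.70 by edgeR). KO replicates 4 and 5 and WT replicate 1 lay close together, with WT replicates 2 and 3 above all other libraries. DESeq2 gave an unadjusted p of 0.040 and an adjusted p of 0.66. The brain isoform Aldoc was scarce, 7.21 CPM ± 3.12 in WT against 5.62 CPM ± 2.25 in KO (SD, n = 3 each), with a log2 fold of -0.36 (adjusted p = 0.83 by edgeR). Tpi1, which interconverts the triose phosphates, had 538, 804 and 690.3 CPM in the WT libraries and 586, 517 and 665 CPM in the KO libraries, with a log2 fold of -0.20 (SE 0.16, adjusted p = 0.78 by edgeR). WT replicates 2 and 3 again lay above every KO library.

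The PFKFB enzymes make and remove fructose 2,6-bisphosphate, the activator of phosphofructokinase. Pfkfb3, the isoform that favours its synthesis, made up 89.9% to 91.9% of the signal of the 3 PFKFB members per kilobase. It had 131, 159 and 157 CPM in WT replicates 1, 2 and 3 and 127, 133 and 163 CPM in KO replicates 4, 5 and 6, so that the highest library was a KO library, and the log2 fold was -0.078 (SE 0.11, adjusted p = 0.88 by edgeR). Pfkfb2 (6.40 CPM ± 0.848 in WT against 6.65 CPM ± 0.571 in KO, SD, n = 3 each) and Pfkfb4 (4.66 CPM ± 0.783 against 4.61 CPM ± 0.335) had log2 folds of 0.056 and -0.016, with edgeR adjusted p-values of 0.93 and 0.99. Pfkfb1, which is not a member, was left out of the share given for Pfkfb3. Per kilobase of exon Pfkfb1 averaged 1.57 CPM, against 0.899 for Pfkfb2, 0.951 for Pfkfb4 and 19.2 for Pfkfb3.

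Lower glycolysis holds several of the most abundant transcripts of the route. Eno1, the main enolase (chromosome 4, 150236721 to 150248879, plus strand, GRCm38), had the lowest estimate of this step, with 835, 1422 and 1237 CPM in WT replicates 1, 2 and 3 and 904, 817 and 1070.2 CPM in KO replicates 4, 5 and 6. Its log2 fold was -0.32 (SE 0.20, adjusted p = 0.72 by edgeR), and WT replicate 1 was under 2 of the 3 KO libraries. Pgk1, which makes the first ATP of the payoff phase, had 447, 633 and 566 CPM in the WT libraries and 457, 425 and 524 CPM in the KO libraries, with a log2 fold of -0.23 (SE 0.14, adjusted p = 0.72 by edgeR). Pkm, the pyruvate kinase gene of T cells, had 1670.2, 2259 and 1950.0 CPM in the WT libraries and 1735, 1528 and 1928 CPM in the KO libraries, with a log2 fold of -0.18 (SE 0.13, adjusted p = 0.76 by edgeR). The count does not separate the PKM1 and PKM2 splice forms.

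Gapdh, the glyceraldehyde 3-phosphate dehydrogenase that is often used as a reference transcript, was not flat across these libraries. It had 1623, 1969 and 1761 CPM in WT replicates 1, 2 and 3 and 1653, 1534 and 1707 CPM in KO replicates 4, 5 and 6, a 1.21-fold span within WT and a log2 fold of -0.13 (SE 0.083, adjusted p = 0.74 by edgeR). Its order of libraries was that of Pgk1 and Pkm. Pgam1, phosphoglycerate mutase, had 152 CPM ± 7.73 in WT against 144 CPM ± 11.98 in KO (SD, n = 3 each), with a log2 fold of -0.074 (SE 0.071, adjusted p = 0.81 by edgeR). The minor enolases had opposite signs: the neuronal Eno2 (5.73 CPM ± 0.755 in WT against 6.33 CPM ± 0.880 in KO, SD, n = 3 each) had a log2 fold of 0.14 (adjusted p = 0.82 by edgeR), and the muscle Eno3 (28.8 CPM ± 1.22 in WT against 27.0 CPM ± 1.501 in KO, SD, n = 3 each) one of -0.094 (adjusted p = 0.76 by edgeR). Gapdh, Eno1, Ldha, Pgk1, Pgam1, Tpi1 and Aldoa have near-identical copies elsewhere in the genome, and how the authors' counting treated reads shared with them is not given, so their levels are uncertain in that respect. The 14 rows named for such copies held at most 0.325% of the parent's counts.

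**Figure D2:**
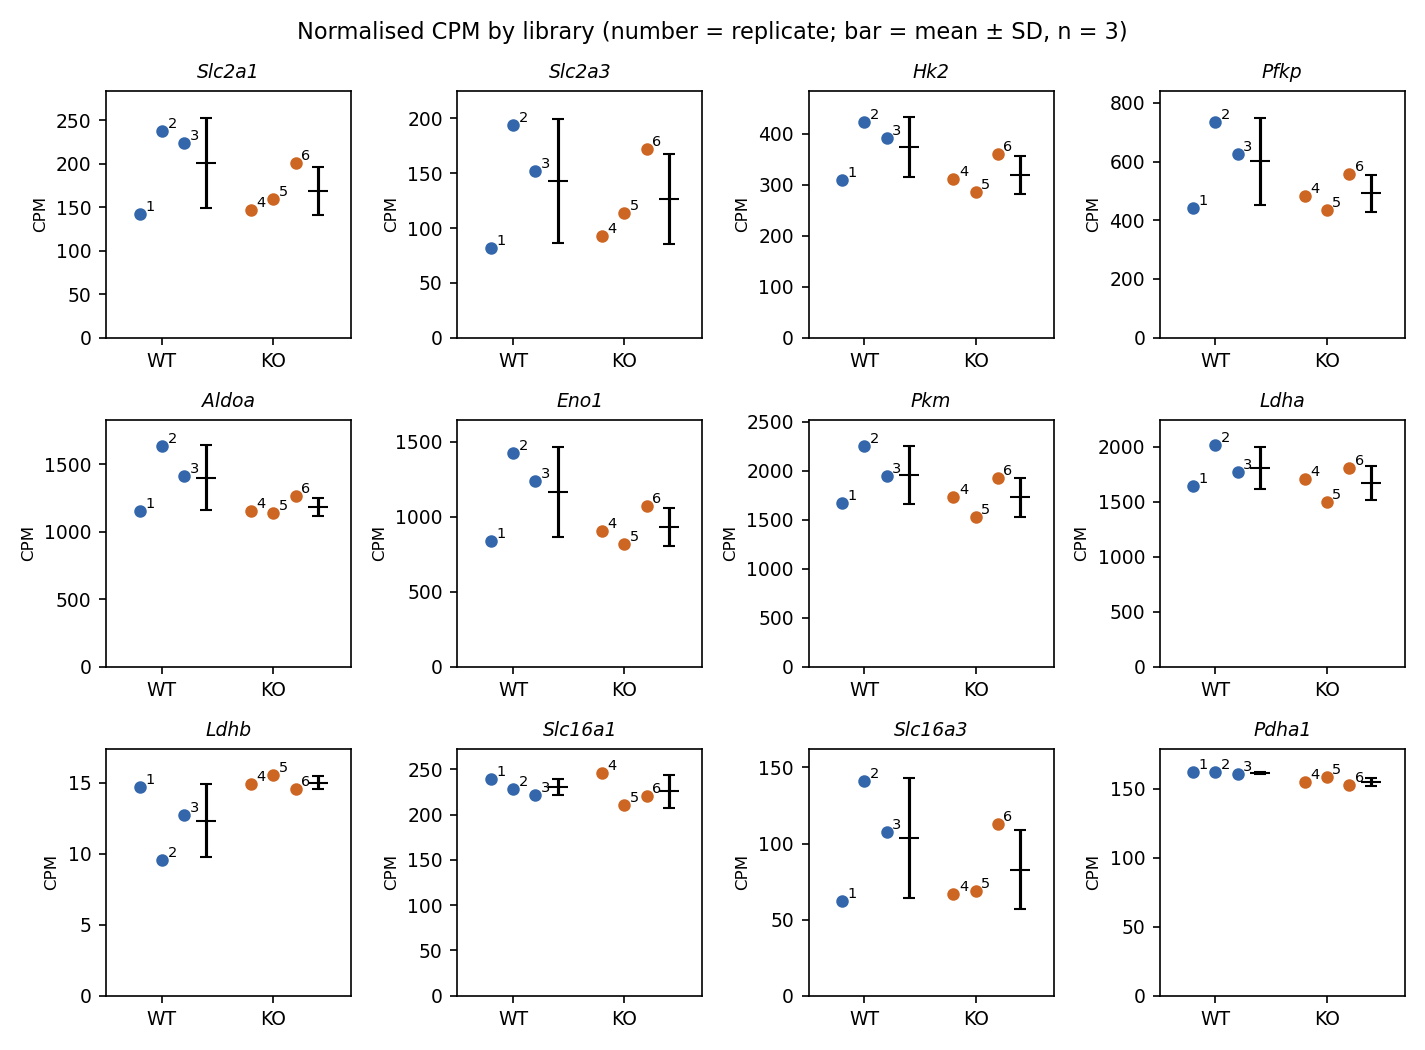
Normalised CPM (y axis, from 0) of 12 members in each library, WT in blue and KO in orange, with the replicate number beside each point and the mean ± SD (n = 3) at the right of each group. In Slc2a1, Hk2, Pfkp, Aldoa, Eno1 and Pkm, WT replicates 2 and 3 lie above all KO points and WT replicate 1 does not, whereas Ldhb is lowest in WT replicate 2.

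At the lactate step the 2 dehydrogenase genes had estimates of opposite sign. Ldha (chromosome 7, 46841475 to 46855627, plus strand, GRCm38), whose product favours lactate formation, had 1639, 2016 and 1765 CPM in WT replicates 1, 2 and 3 and 1709, 1498 and 1804 CPM in KO replicates 4, 5 and 6, with a log2 fold of -0.11 (SE 0.099, adjusted p = 0.80 by edgeR). Ldhb, whose product favours the return of lactate to pyruvate, had 14.7, 9.57 and 12.7 CPM in the WT libraries and 14.9, 15.5 and 14.6 CPM in the KO libraries, given by library after its values were seen, with a log2 fold of 0.29 (SE 0.15, adjusted p = 0.70 by edgeR). WT replicate 2 was the highest library for Ldha and the lowest for Ldhb, and for Ldhb WT replicate 1 lay between KO replicates 6 and 4. Ldhb made up 0.991% to 2.14% of the 2 genes' signal per kilobase. A difference between the 2 folds was not tested.

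Of the monocarboxylate transporters, one was even across libraries and the other was not. Slc16a1, the gene of MCT1, had 239.9, 228 and 222 CPM in WT replicates 1, 2 and 3 and 246, 210.4 and 220.2 CPM in KO replicates 4, 5 and 6, with a log2 fold of -0.029 (SE 0.067, adjusted p = 0.93 by edgeR) and an interval of the fold from 0.879 to 1.09. Slc16a3, the gene of MCT4 (chromosome 11, 120948480 to 120960868, plus strand, GRCm38), had 62.5, 141 and 108 CPM in the WT libraries and 66.8, 68.5 and 113 CPM in the KO libraries. It spanned 2.26-fold within WT and its log2 fold was -0.33 (SE 0.33, adjusted p = 0.82 by edgeR). Per kilobase Slc16a3 was 17.8% of the 2 transporters' signal in WT replicate 1 and 34.0% in WT replicate 2.

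Log2 folds of the 10 pyruvate entry genes ran from -0.10 to 0.066, and those of the 26 other tested members from -0.36 to 1.40. Pdha1, the E1 alpha subunit of pyruvate dehydrogenase (chromosome X, 160122209 to 160138413, minus strand, GRCm38), was the one member whose groups did not overlap, with 162, 162 and 160.4 CPM in WT replicates 1, 2 and 3 and 155, 158 and 153 CPM in KO replicates 4, 5 and 6. Every KO library lay under every WT library, and the log2 fold was -0.056 (SE 0.038, adjusted p = 0.75 by edgeR), or 0.962-fold. Its WT libraries spanned 1.01-fold. The share of all genes with KO below WT in this way was 6.07%. The other subunits Pdhb, Dlat and Dld, encoding E1 beta, E2 and E3, had log2 folds of -0.087, -0.00045 and -0.044, and means of 66.1 to 105 CPM. The smallest edgeR adjusted p of these 3 was 0.80, for Pdhb.

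The mitochondrial pyruvate carrier is built from MPC1 and MPC2. Mpc1 had 27.4, 26.1 and 28.9 CPM in WT replicates 1, 2 and 3 and 25.3, 26.3 and 25.1 CPM in KO replicates 4, 5 and 6, with a log2 fold of -0.10 (SE 0.062, adjusted p = 0.72 by edgeR). The KO libraries of Mpc1 lay under WT replicates 1 and 3 and KO replicate 5 exceeded WT replicate 2. Mpc2 had 32.9, 27.9 and 29.7 CPM in the WT libraries and 32.0, 29.3 and 30.8 CPM in the KO libraries, with a log2 fold of 0.028 (SE 0.076, adjusted p = 0.94 by edgeR).

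Pyruvate dehydrogenase kinases switch the dehydrogenase off, and the phosphatase PDP1 switches it on. Pdk1, a known HIF-1 target, had 137, 202 and 188 CPM in WT replicates 1, 2 and 3 and 135, 163 and 207 CPM in KO replicates 4, 5 and 6, with a log2 fold of -0.061 (SE 0.19, adjusted p = 0.95 by edgeR). KO replicate 6 was its highest library and KO replicate 4 its lowest. Pdk3 had 62.5, 55.8 and 59.0 CPM in the WT libraries and 61.5, 57.9 and 60.5 CPM in the KO libraries, with a log2 fold of 0.020 (SE 0.057, adjusted p = 0.94 by edgeR) and an interval of the fold from 0.925 to 1.11. Per kilobase of exon Pdk3 averaged 48.3% ± 5.72 and Pdk1 46.8% ± 6.50 of the 3 kinases' signal in WT (SD, n = 3), and with the longest transcript as length Pdk1 came first, at 51.7%. Pdk2 (7.43 CPM ± 0.708 in WT against 7.73 CPM ± 1.09 in KO, SD, n = 3 each) and Pdp1 (11.98 CPM ± 0.253 against 12.5 CPM ± 0.570) had log2 folds of 0.056 and 0.066, neither called.

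Levels compared between genes per kilobase of exon, as means over the 6 libraries, followed this order when the length was that of all exons joined. Ldha was first with 525 CPM per kilobase, followed by Gapdh with 413, Pkm with 369 and Aldoa with 348. Tpi1 with 230.1 and Pgk1 with 227 came next and differed by less than the spread between libraries, then Eno1 with 195 and Gpi1 with 124. Pgam1 had 74.7, Hk2 58.0, Slc2a1 52.8 and Slc16a1 51.5 CPM per kilobase, the last 3 again within each other's spread. Pdha1 had 42.4, and the phosphofructokinases Pfkp and Pfkl had 40.8 and 39.5 CPM per kilobase. With the longest transcript as length Ldha stayed first with 958 CPM per kilobase, followed by Aldoa with 833, Pkm with 759, Gapdh with 519 and Eno1 with 517, and Pfkl with 70.6 came before Pfkp with 62.9. Many places below Ldha thus depend on the length used, while Pkm, Gpi1 and Pgam1, among others, kept theirs. The annotation lists Aldoa under 2 gene models, so its exon length is uncertain too.

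Across libraries the members of glucose transport, glycolysis and lactate shared an order in which the WT libraries stood apart from each other. Together the 37 members summed to 11382, 15305 and 13617 CPM in WT replicates 1, 2 and 3 and to 11743, 10949 and 12999 CPM in KO replicates 4, 5 and 6. WT replicate 2 was the highest of all libraries for 18 of the 26 tested members of these steps (69.2%), against 18.3% of all tested genes and 1 of 10 members of pyruvate entry. Within WT, replicate 2 exceeded replicate 3 and replicate 3 exceeded replicate 1 in 18 of 26 members, against 22.7% of all genes. Within KO, replicate 6 was the highest for 19 of 26, against 29.4% of all genes. Every KO library lay below both WT replicates 2 and 3 in 13 of 26 members, against 17.1% of all genes, and in 11 of the 13 members of at least 200 CPM, against 25.4% of genes at that level. WT replicate 1 was the lowest WT library for 19 of 26, against 40.0% of all genes. The orders counted follow those seen in the members, so an excess over all genes was in part fixed by that choice. Setting KO against WT replicates 2 and 3 alone leaves aside WT replicate 1, the library that broke the separation. Genes of 1 library are not independent, so these counts describe the 6 libraries and are given with no test.

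**Figure D3:**
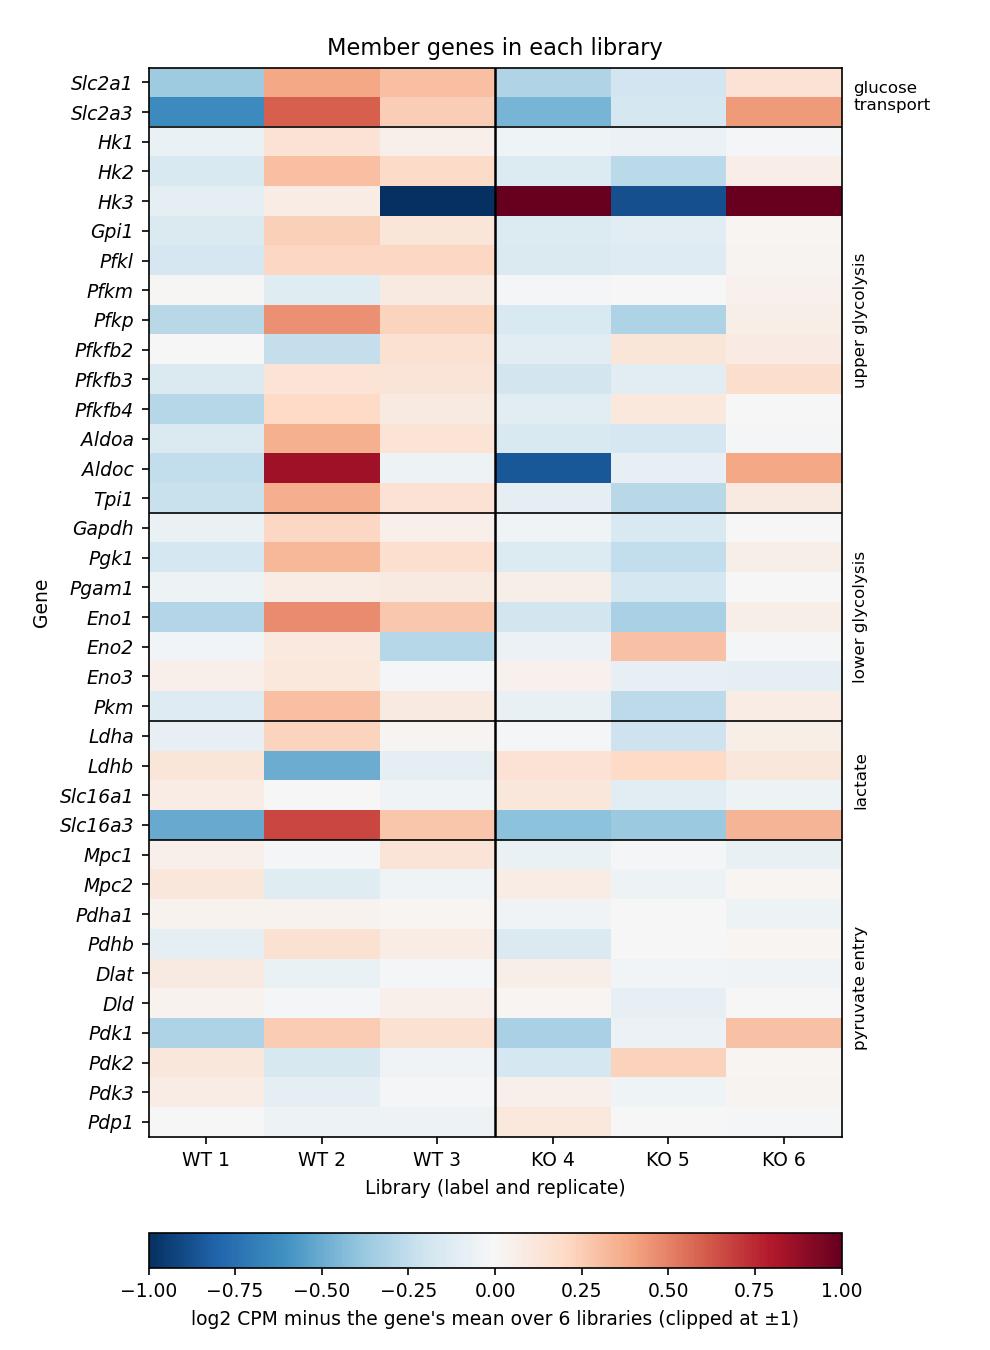
Colour gives log2 CPM minus the gene's mean over the 6 libraries for each of the 36 tested members (rows, by step of the route) in each library (columns, WT left and KO right of the black line), clipped at 1. The columns of WT replicates 2 and 3 and KO replicate 6 are mostly red from Slc2a1 to Pkm, those of WT replicate 1 and KO replicates 4 and 5 mostly blue, with Hk3 as the plainest exception, and the pyruvate entry rows are paler apart from Pdk1.

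The spread among WT libraries exceeded the difference between the group means in 34 of 36 members, and in 82.6% of all tested genes. It was also wide for genes this abundant. The 13 members with a mean of at least 200 CPM had a median coefficient of variation of 15% within WT and 9.35% within KO, while all 1074 genes at that level had medians of 4.77% and 4.88%. Among these 13, WT replicate 2 was the highest library for 12, the exception being Slc16a1. For Pgk1, with a typical spread, 0.684 to 1.07 was the 95% interval for the ratio of KO to WT.

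Other gene groups moved across the same libraries. The summed level of 18 mitosis genes ran the opposite way within WT, with 2215, 1449 and 1496 CPM in replicates 1, 2 and 3, and was 2189, 1841 and 2041 CPM in KO replicates 4, 5 and 6. None of the 18 passed the edgeR test, which called 0.00659% of all tested genes. Their estimates had a median of 0.22 on the log2 scale. All 18 were above 0, as were 7960 of 15186 tested genes. The sum of 6 B cell markers, all of them above 0 in every library, was 23.5, 70.4 and 45.4 CPM in WT replicates 1, 2 and 3 and 26.6, 30.0 and 39.0 CPM in KO replicates 4, 5 and 6. WT replicates 2 and 3 were its highest libraries, as they were for the member sum. None of the 6 passed the edgeR test, and their estimates had a median of -0.71 on the log2 scale. All were below 0, as were 47.6% of all tested genes. Genes of 1 such group are not independent, so their shared signs are not separate findings. Marker sums of neutrophils, NK cells and erythroid cells stayed at or under 0.386 CPM, with Retnlg at 0 in every library, and those of dendritic cells ran from 3.68 to 5.78 CPM. Myc and Irf4 belong to a list of 8 activation genes. Their sum was 4567, 4665 and 4337 CPM in WT replicates 1, 2 and 3. In KO replicates 4, 5 and 6 it was 4441, 3920 and 4184 CPM. None of the 8 passed the edgeR test, with 5 estimates below 0 and 3 above. KO lay below WT without overlap for 2 and above for 0, where 6.07% and 6.68% of all genes did so. The part of mitosis, B cell or activation transcripts in the members' values was not tested.

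**Figure D4:**
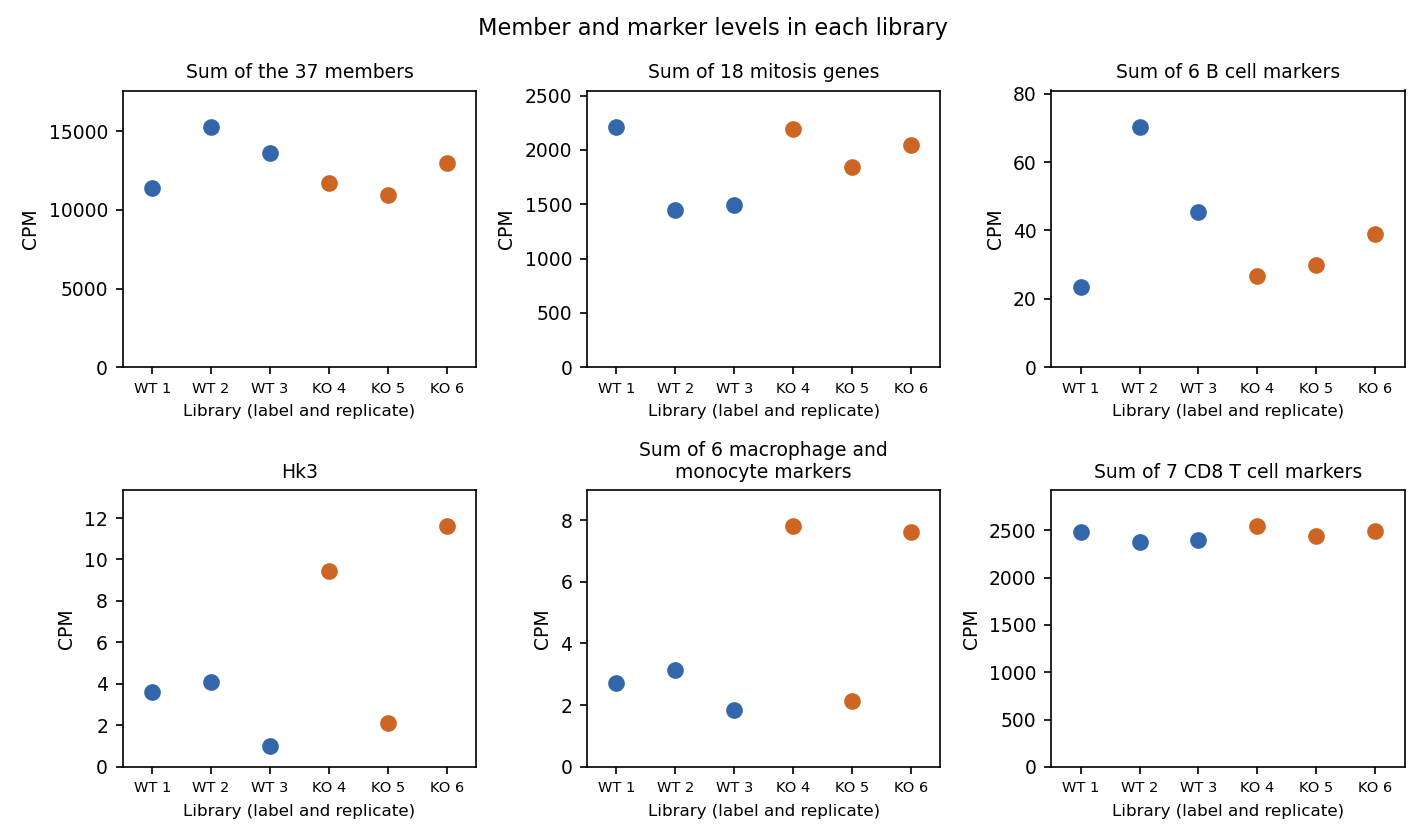
Level in CPM (y axes, from 0) in each of the 6 libraries (x axes), WT in blue and KO in orange, for the sum of the 37 members, of 18 mitosis genes, of 6 B cell markers, of 6 macrophage and monocyte markers and of 7 CD8 T cell markers, and for Hk3. WT replicate 2 is highest for the members and the B cell markers and lowest for the mitosis genes, and Hk3 is high in KO replicates 4 and 6, as is the sum of the macrophage and monocyte markers.

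Leaving out WT replicate 1, the WT library with the lowest member sum, changed the median log2 fold of the members to -0.15, and leaving out WT replicate 2 changed it to -0.042. Without WT replicate 1, 12 of 36 members had lower KO values at an unadjusted p under 0.05 and 1 had higher values, where 7.33% and 7.58% of 15584 genes did so, and 0 members passed after adjustment, against 119 genes (0.764%). The 12 were Slc2a1, Hk1, Hk2, Gpi1, Pfkl, Pfkp, Aldoa, Tpi1, Gapdh, Pgk1, Eno1 and Pkm, and the 1 higher was Ldhb. WT replicate 1 was the lowest WT library for each of the 12 and the highest for Ldhb. Leaving it out therefore moves their WT means in these directions and narrows the WT spread, whatever the KO values are. The 12 vary together across libraries and are not separate findings. Pfkl had the smallest edgeR adjusted p among members then, 0.11, at a log2 fold of -0.29. Eno1 came to -0.51 (edgeR adjusted p = 0.13), Slc2a1 to -0.45 (0.20) and Hk2 to -0.35 (0.18). WT replicate 2 acted the other way: without it the log2 folds of Eno1, Slc2a1 and Hk2 were -0.15, -0.12 and -0.14, and 0 members had an unadjusted p under 0.05.

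**Figure D5:**
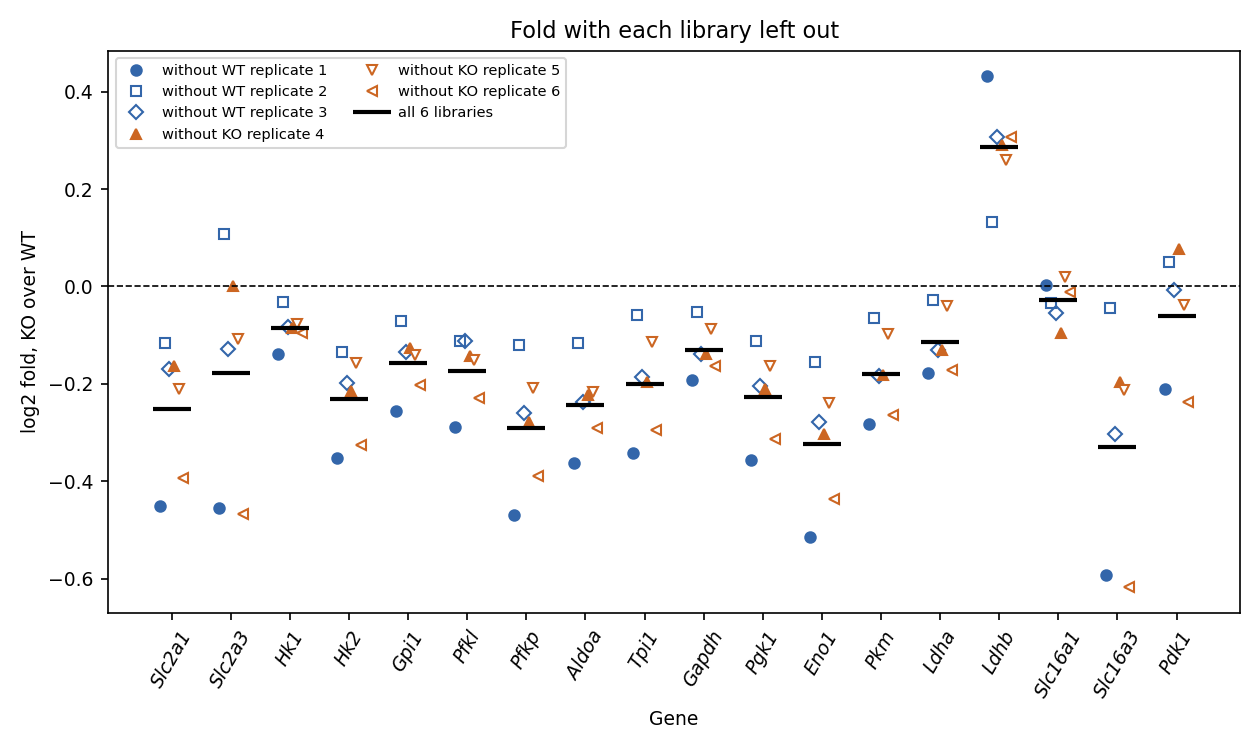
Log2 fold of KO over WT (y axis) for 18 members (x axis) with all 6 libraries (black bars) and with each library left out in turn (blue for a WT library, orange for a KO library). Points without WT replicate 1 lie under the bar for Slc2a1, Hk2, Pfkp and Eno1 and those without WT replicate 2 lie above it, and Ldhb shows the reverse.

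Beyond the members, 65 further genes of the pathway were listed as other isoforms, partners and regulators, and transcription factors, and 50 were tested. EdgeR and DESeq2 called 0 of them. At an unadjusted p under 0.05 edgeR gave 2 higher and 4 lower, where 3.82% and 3.44% of all genes were so, and the median log2 fold was -0.059. KO lay above WT without overlap for 3 of the 50 and below for 4, where 6.68% and 6.07% of all genes did so. Among 14 transcription factors and their regulators, Myc had the smallest p. It had 892, 932 and 872 CPM in WT replicates 1, 2 and 3 and 812, 711 and 792 CPM in KO replicates 4, 5 and 6, every KO library under every WT library, with a log2 fold of -0.22 (SE 0.066, adjusted p = 0.60 by edgeR). Hif1a, the oxygen-regulated subunit of HIF-1, had 320.2, 389.8 and 371 CPM in the WT libraries and 361, 375 and 383 CPM in the KO libraries, with a log2 fold of 0.048 (SE 0.077, adjusted p = 0.89 by edgeR). Its lowest library was WT replicate 1, without which the log2 fold was -0.030. Irf4, a factor that scales with T cell receptor signal, had a log2 fold of -0.20 (adjusted p = 0.72 by edgeR), and Foxk1 and Foxo1 ones of -0.092 and -0.095 (edgeR adjusted p = 0.70 for both).

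Of 25 partners and regulators, 21 were tested. The 2 with the smallest p were Got1 and Pck2. Got1, cytosolic aspartate aminotransferase of the malate-aspartate shuttle, had 137, 149.9 and 144 CPM in WT replicates 1, 2 and 3 and 128, 127 and 121 CPM in KO replicates 4, 5 and 6, with a log2 fold of -0.19 (SE 0.050, adjusted p = 0.60 by edgeR). Pck2, mitochondrial phosphoenolpyruvate carboxykinase, had 187, 234 and 219 CPM in the WT libraries and 177, 174 and 162 CPM in the KO libraries, with a log2 fold of -0.32 (SE 0.084, adjusted p = 0.60 by edgeR). Pck2 was the 1 listed pathway gene that passed when WT replicate 1 was left out (log2 fold -0.40, edgeR adjusted p = 0.043). In both genes the highest KO library lay under the lowest WT library. Gpd2, the mitochondrial enzyme of the glycerol phosphate shuttle, had 75.5, 89.7 and 81.3 CPM in the WT libraries and 77.6, 70.7 and 67.8 CPM in the KO libraries, with overlapping groups and a log2 fold of -0.19 (SE 0.079, adjusted p = 0.68 by edgeR).

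The chaperones of the lactate transporters are basigin and embigin, encoded by Bsg and Emb. Emb had 132, 122 and 129.6 CPM in WT replicates 1, 2 and 3 and 139, 147 and 158 CPM in KO replicates 4, 5 and 6, each KO library above each WT library, with a log2 fold of 0.21 (SE 0.061, adjusted p = 0.60 by edgeR). Bsg, the partner of MCT1 and MCT4, had 209, 231 and 221 CPM in the WT libraries and 207, 202 and 221 CPM in the KO libraries, with a log2 fold of -0.070 (SE 0.057, adjusted p = 0.78 by edgeR). Txnip, which restrains glucose uptake, had 107, 172 and 175 CPM in the WT libraries and 100.3, 148 and 160.4 CPM in the KO libraries, with a log2 fold of -0.15 (SE 0.23, adjusted p = 0.89 by edgeR). It was low in WT replicate 1 and KO replicate 4 and did not separate the genotypes, and its log2 fold was 0.028 without KO replicate 4.

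Of 26 other isoforms and cofactors, 15 were tested, and Ldhc and Pdha2 were at 0 in every library. Bpgm, bisphosphoglycerate mutase, had 11.6, 10.2 and 11.03 CPM in WT replicates 1, 2 and 3 and 13.0, 12.001 and 12.6 CPM in KO replicates 4, 5 and 6, with every KO library above every WT library. Its log2 fold was 0.19 (SE 0.082, adjusted p = 0.69 by edgeR). Erythroid markers, which accompany Bpgm in red cells, summed to at most 0.345 CPM. The part of red cells in the Bpgm values was not tested. Adpgk, an ADP-dependent glucokinase, had 107, 114 and 112 CPM in the WT libraries and 103, 106 and 106 CPM in the KO libraries, KO just under WT, with a log2 fold of -0.079 (adjusted p = 0.71 by edgeR). Pdpr, a regulator of the pyruvate dehydrogenase phosphatase, and Slc16a7, the gene of MCT2, had log2 folds of 0.074 and 0.41 (edgeR adjusted p = 0.77 for both), and Slc16a7 did not exceed 0.372 CPM.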

How the data were processed

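A single table of raw counts (reads per gene symbol, a column for each of 6 libraries) is what the authors deposited. The submitters' processing notes list HTSeq 0.9.1, DESeq2 and the build mm10, without roles. Aligner, annotation and strand setting were not given in the sources used here. So reads of a gene and of an antisense or overlapping neighbour could be mixed. RNA was isolated with Trizol, per the labels' protocols.

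Deposited counts of KO and WT were filtered with filterByExpr, scaled by TMM and tested by glmQLFit with robust estimation and glmQLFTest, in edgeR 4.0.16 under R 4.3.3. A call was a Benjamini-Hochberg adjusted p under 0.05 over 15186 genes. An SE is the log2 fold divided by the root of F, and intervals are at the 95% level. No 2 libraries were duplicates: chi-square per gene averaged 21.2 to 58 for the 15 pairs, computed on genes reaching 200 reads between both libraries. Alternatives used limma 3.58.1 and DESeq2 1.42.0. Positions and exon lengths came from GENCODE annotation of GRCm38, which is mm10, and promoters from RefSeq (GRCm38.p6).

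The members and lists were chosen with earlier results of these data known. Per-library values were given for members of at least 200 CPM, for 11 set whatever their values, and for those with groups that did not overlap, while Hk3 and Ldhb were added after their values were seen. The 4 genes with the smallest p of each further list were named, with Hif1a, Myc, Bsg and Txnip. On simulated counts of 14965 genes edgeR recovered 34.3% of 67 genes changed 1.5-fold, 64.2% of 67 changed 2-fold and 90.9% of 66 changed 4-fold. It made 14 false calls among the unchanged genes. The changed genes were drawn at random, so these shares need not hold for the abundant members. Their spread within WT was wider than that of all genes at their level.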

Additional observations from a re-analysis of the deposited data

How the results depend on the processing

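Members called by edgeR, 0 of 36, stayed at 0 under all 14 alternatives (RLE factors, upper-quartile factors, all genes kept with no low-count filter, at least 1 CPM in 3 libraries, DESeq2, limma-voom, no robust estimation, each of 6 libraries left out, and a term for Xist level, chosen after seeing the data). Over all genes edgeR called 1, against 10 without a low-count filter, 96 in DESeq2 and 1 to 119 with 1 library left out (119 without WT replicate 1, and 2 without WT replicate 2). Other pathway genes called ranged from 0 to 1 with 1 library left out, the 1 being Pck2 without WT replicate 1. Of the 36 members 25 kept the sign of their estimate under every alternative. The other 11 had estimates near 0 or a wide spread, and with 1 library left out they ranged as follows: Slc2a3 -0.47 to 0.11, Aldoc -0.68 to 0.049, Pdk1 -0.24 to 0.076, Pfkfb4 -0.14 to 0.086, Slc16a1 -0.096 to 0.019, Dlat -0.034 to 0.047, Pfkm -0.043 to 0.061, Pfkfb2 -0.040 to 0.15, Mpc2 -0.025 to 0.095, Pdk2 -0.055 to 0.15 and Pdk3 -0.018 to 0.063 (log2 folds). The highest values of Slc2a3, Aldoc and Pfkfb4 came without WT replicate 2. Dlat also turned positive without a low-count filter (0.00047), in limma-voom (0.0010) and with the Xist term (0.0088). These causes were not tested. Of the 16 other pathway genes recomputed, Hif1a (-0.030 without WT replicate 1) and Txnip (0.028 without KO replicate 4) changed sign. Map3k14 kept its sign and stayed uncalled throughout. No paired analysis was possible because the groups share no replicate number (1 to 3 against 4 to 6). Pgam2 was removed by the low-count filter of the main test and entered the fits without that filter and in DESeq2, uncalled in both. For abundant members the spread between 3 libraries exceeds counting error.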

Other observations

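Egln3, named after its values were seen, encodes a prolyl hydroxylase that marks HIF alpha subunits for degradation and is itself raised by HIF-1. It had 69.9, 212 and 169 CPM in WT replicates 1, 2 and 3 and 62.0, 63.0 and 160.1 CPM in KO replicates 4, 5 and 6, a span of 3.04-fold among WT libraries and a log2 fold of -0.66 (SE 0.54, adjusted p = 0.79 by edgeR). WT replicate 2 was the highest and WT replicate 1 the lowest WT library, and KO replicate 6 stood above KO replicates 4 and 5, as in Slc2a3 and Slc16a3. Egln1, the main oxygen-sensing hydroxylase, was also named after its values were seen and had 105, 141 and 138 CPM in the WT libraries and 101, 117 and 126 CPM in the KO libraries. Pgm2, a phosphoglucomutase chosen the same way, had 65.3, 100.3 and 93.6 CPM in the WT libraries and 70.8, 73.4 and 85.7 CPM in the KO libraries, with a log2 fold of -0.17 (adjusted p = 0.80 by edgeR). Arrdc4, a relative of Txnip and likewise named after its values were seen, had 2.58, 5.36 and 4.49 CPM in the WT libraries and 5.33, 6.20 and 4.81 CPM in the KO libraries, and was lowest in WT replicate 1, with a log2 fold of 0.39 (adjusted p = 0.74 by edgeR). None of these 4 passed the test, and no explanation of their order was tested.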
